A study of Homo sapiens with 6 samples.

Results

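The genes described here are a set of 34 genes, taken by symbol, that are listed as targets of the tumor suppressor p53. Whether p53 acts directly on each of them, TP53BP1 included, was not tested. The rule for the set uses no value of these libraries, but it was drawn up with earlier results of these data known. All 34 were found among the 58233 gene identifiers of the count table, and 33 of them were abundant enough to be tested, among 13028 tested genes in all. The libraries come from OCI-AML2, an established human acute myeloid leukemia line, with 3 libraries labelled NT control (cells given a non-targeting guide) and 3 labelled IKZF1-ko (cells in which CRISPR was aimed at IKZF1, the gene of the blood transcription factor Ikaros). Polyadenylated RNA was sequenced, and no label names a drug, dose or time for any library. The series text speaks of 3 lines per genotype and the protocol of triplicate isolations, so it is not clear whether replicates are clones, cultures or repeat isolations, and p-values measure only the spread between these libraries.

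The protein p53 is a transcription factor that is held low by the ubiquitin ligase MDM2 and is stabilized after DNA damage and other stresses. It then binds pairs of a short decamer motif near its targets and raises a program that includes a block of the cell cycle, DNA repair, apoptosis, changes in metabolism and its own inhibitors. In blood cells this program is known for its part in the response to DNA-damaging drugs, and MDM2 and CDKN1A are its usual readouts.

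The sequences shown are the p53 half-sites in the promoters of the members, because p53 binds pairs of this motif near its targets. RefSeq promoter windows (GRCh38.p14, 300 bases: 250 before and 50 after each transcript start) were held for 27 of the 34 members, in 40 windows. GADD45A, PHLDA3, RRM2B, TNFRSF10B, TNFRSF10C, TP53INP1 and TRIM22 had no entry. The 10-base p53 half-site consensus, searched on both strands with no mismatch allowed, was found in 7 of 40 member windows (17.5%). It was found in 6.63% of all 35116 windows. Sites with a mismatch and sites outside the windows were not searched for. Each line gives the gene, the stretch and strand, and the sequence read 5′ to 3′ on the strand of the gene, with the half-site in capitals.
AEN, chr15:88621296-88621325, plus strand: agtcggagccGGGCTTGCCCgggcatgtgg
PLK2, chr5:58460199-58460228, minus strand: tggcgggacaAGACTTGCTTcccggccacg
RPS27L, chr15:63157517-63157546, minus strand: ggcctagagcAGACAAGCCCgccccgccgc
SESN1, chr6:109009018-109009047, minus strand: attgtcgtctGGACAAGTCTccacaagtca
FAS, chr10:88991299-88991328, plus strand: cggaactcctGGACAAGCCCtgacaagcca
FDXR, chr17:74872986-74873015, minus strand: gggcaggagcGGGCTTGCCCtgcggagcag
DDB2, chr11:47214975-47215003, plus strand: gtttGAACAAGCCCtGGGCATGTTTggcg
By this exact search 1 member, DDB2, had a full site, a pair of half-sites with at most 13 bases between them, here 1. Of all 35116 windows, 10 (0.0285%) held such a pair. Pairs with a mismatch in either half-site were not counted. Relative to the RefSeq transcript start, the matches began at base -34 (AEN), -132 (PLK2), -59 (RPS27L), -49 (SESN1), -122 (FAS), -11 (FDXR) and 5 (DDB2). AEN, PLK2, RPS27L and SESN1 are among the members called lower in IKZF1-ko in the results that follow, and FAS, FDXR and DDB2 are not. Of members with an entry, a half-site was thus found in 4 of 8 called lower, 0 of 2 called higher and 3 of 16 not called. A relation between half-sites and calls was not tested. The letters TGGGAA, the core of the Ikaros motif, stood in 10 of 40 member windows (25%) on either strand and in 24% of all windows. A match in these windows is a description of the sequence and does not show binding.

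The labelled cell type and the libraries were checked first. Total counts ranged from 11300519 to 18214328 per library, and mitochondrial genes held 3.16% to 4.21% of counts. Of 10 myeloid markers 9 were tested, with a summed level of 1481 to 1627 CPM in NT control and 1475 to 1585 CPM in IKZF1-ko (CPM, counts scaled to library size with TMM factors), and 0 of 6 T cell, 0 of 6 erythroid and 0 of 5 epithelial markers passed the filter. The markers of B cells and fibroblasts gave 2 of 5 and 1 of 5 tested genes. The fibroblast marker tested, PDGFRB, was at 15.4, 36.1 and 12.2 CPM in NT control (replicates 1 to 3, the order used throughout) and at 51.9, 21.0 and 19.1 CPM in IKZF1-ko, so it was higher in the smaller set (set coefficient 1.38) and in IKZF1-ko (log2 fold change 0.53 with the set term described next, edgeR adjusted p = 8.03e-04), and its part in the results was not tested. IKZF1 itself was at 331, 292 and 334 CPM in NT control and at 421, 426 and 436 CPM in IKZF1-ko, so its mRNA was not lower in the libraries so labelled. Gene counts do not show an edited sequence or protein, so this does not check the labels. The first principal component of all genes (67.6% of the variance) put NT control replicate 2 and IKZF1-ko replicate 1, called the smaller set here, apart from the other 4 libraries, called the larger set. No label names what the libraries of a set share. Calls are therefore given on group alone and with a term for the set. The values of single genes and lists are from the fit with the term unless another is named, since on group alone 0 genes of any list passed. The difference between the sets is described without a test because the sets were found in the same counts.

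With the library set as a term in the fit, 10 of the 33 tested p53 targets were lower in IKZF1-ko, where 6.62% of all genes were, and 2 were higher (6.06%), near the 6.93% of all genes. On group alone 0 were called. CDKN1A, an inhibitor of cyclin-dependent kinases, was 1.59-fold lower, PHLDA3, an inhibitor of AKT signaling, 1.62-fold lower, the nuclease AEN 1.46-fold lower and MDM2, the ligase that degrades p53, 1.30-fold lower. APAF1, the scaffold of the apoptosome, was higher by 0.33 on the log2 scale. The difference between the sets was wider than that between the groups for most members. Both libraries of the smaller set lay below all 4 others for 22 of 33 members, where 31.5% of all genes did, ZMAT3 among them at 13.7 and 11.6 CPM against 47.8 to 61.1 CPM. They lay above all others for 5, GADD45A, BTG1, BTG2, PLK3 and CCNG1, where 32.5% of all genes did. In bulk libraries, fewer cells with a transcript and less of it per cell cannot be told apart.

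On group alone, the planned edgeR quasi-likelihood test with Benjamini-Hochberg adjustment called 0 of 33 members, as it called 0 of 13028 genes (0.00%). DESeq2 and limma-voom on group alone also called 0 members. At an unadjusted p under 0.05 there were 2 members, APAF1 and SESN1, and 3.50% of all genes. These are also the members whose groups did not overlap over the 6 libraries. Of the 33 members 1 lay wholly lower in IKZF1-ko, where 4.07% of all genes did, and 1 wholly higher, where 5.28% did, so these counts were near the background.

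With the set term, edgeR called 862 of all 13028 genes lower and 903 higher, and the 10 members called lower were 30.3% of the 33. On group alone these 10 had log2 fold changes of -0.66 to -0.22, and the 2 called higher had 0.18 and 0.32. The median log2 fold change was -0.19 over the 33 members and 0.002 over all genes, and it was -0.18 and 0.001 on group alone. The set term was chosen from these counts, and its p-values do not include the uncertainty of that choice. With 1 surrogate variable in place of the term, 7 members were called lower and 2 higher (3.52% and 4.39% of all genes), and in the 4 libraries of the larger set alone 12 and 3 (7.10% and 7.64%). In those 4 libraries both IKZF1-ko libraries were deeper than both NT control libraries, and the part of depth in the result was not tested. Without IKZF1-ko replicate 3, 6 members were called lower and 1 higher. Without NT control replicate 1 or replicate 3, 1 was called higher, with 7 and 8 lower. Over 17 settings of the fit, CDKN1A, BTG1, MDM2, AEN, PHLDA3 and SESN1 were called lower in each and APAF1 was called higher in each. The settings are not separate checks, since they share libraries and most keep the set term chosen from these counts. Without NT control replicate 2 or IKZF1-ko replicate 1, the set term takes up the library left in the smaller set. Both settings therefore nearly repeat the larger set alone.

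**Figure D1:**
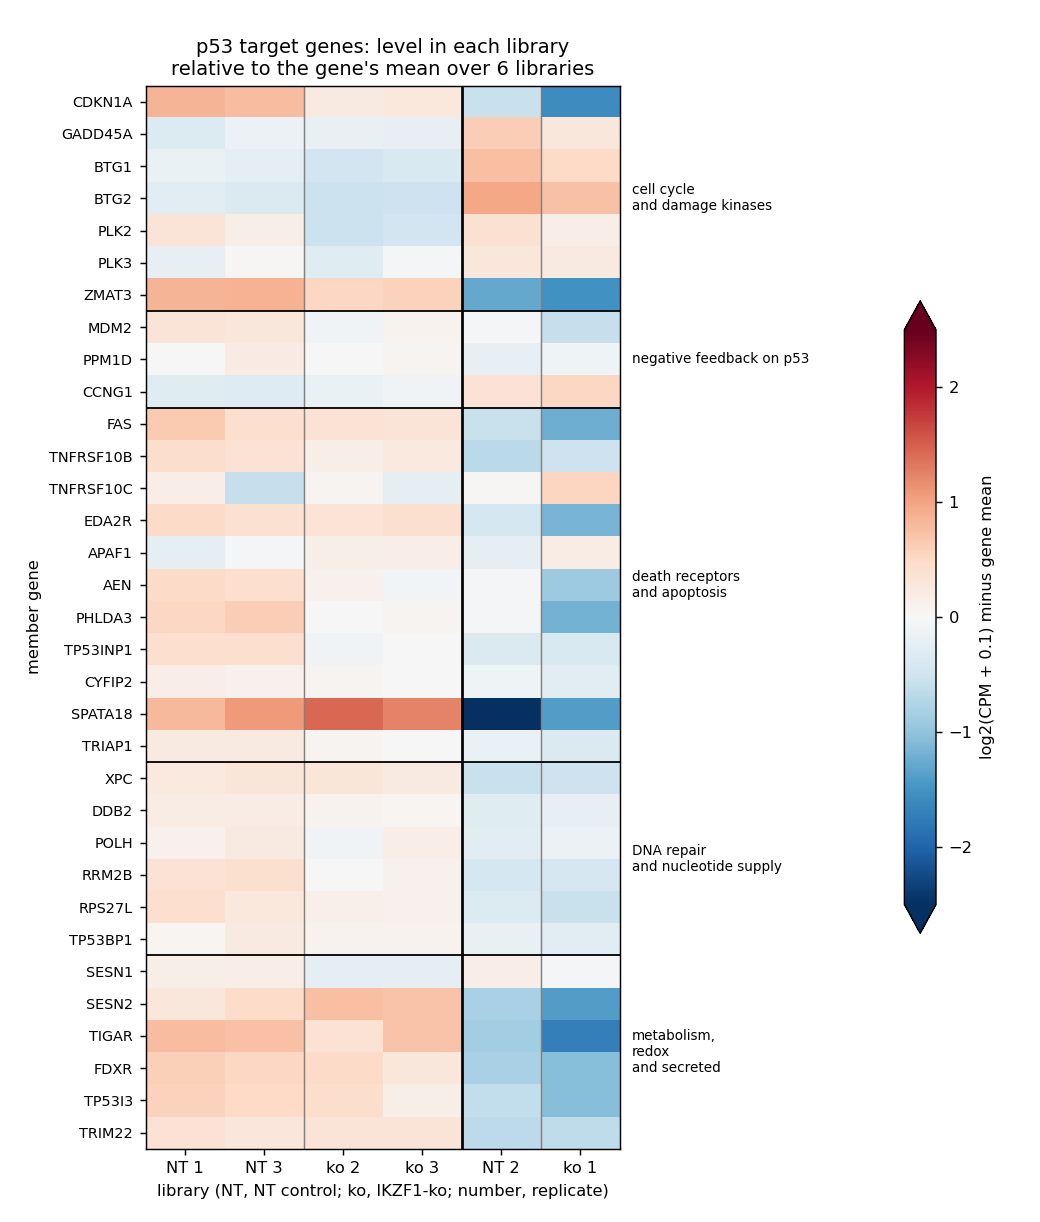
Level of 33 p53 target genes (rows, by role) in 6 libraries (columns), as log2 of CPM plus 0.1 minus the mean of that gene over the libraries. The thick line sets the 2 libraries of the smaller set at the right, where most rows are blue (22 of 33 lie below the other 4 libraries) and BTG1, BTG2, GADD45A, PLK3 and CCNG1 are red.

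Among the members that act on the cell cycle, 4 of 7 were lower in IKZF1-ko with the set term and 0 were higher. Of all genes, 6.62% were lower and 6.93% higher. CDKN1A (ENSG00000124762, GRCh38 chromosome 6, 36676460 to 36687339) encodes p21, through which p53 halts the cycle. Its level was 80.4, 30.2 and 76.2 CPM in NT control and 14.8, 52.2 and 53.6 CPM in IKZF1-ko. The groups overlapped, because NT control replicate 2 was lower than the IKZF1-ko libraries of the larger set, while within each set every IKZF1-ko library was below every NT control library. The log2 fold change was -0.67 (SE 0.078, edgeR adjusted p = 2.16e-05) with the set term, and -0.49 (adjusted p = 0.0017) with the surrogate variable. The set coefficient, the log2 difference of the smaller from the larger set, was -1.57, more than the group difference in size.

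ZMAT3 encodes a zinc-finger RNA-binding protein that regulates splicing. It was at 59.9, 13.7 and 61.1 CPM in NT control and at 11.6, 47.8 and 49.6 CPM in IKZF1-ko. Its libraries split by set, 4.31-fold lower in the smaller set, with a small step between the groups inside each set. Between the groups the log2 fold change was -0.30 (SE 0.069, edgeR adjusted p = 0.0080) with the set term. It was -0.04 (adjusted p = 0.80) with the surrogate variable and -0.31 (adjusted p = 0.053) without IKZF1-ko replicate 3, so the call was lost in both.

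BTG1 and BTG2, antiproliferative partners of the CCR4-NOT deadenylase, were higher in the smaller set. BTG1 was at 85.4, 161 and 80.8 CPM in NT control and at 134, 68.6 and 72.9 CPM in IKZF1-ko, 1.92-fold higher in the smaller set. Between the groups it was lower in both sets, with a log2 fold change of -0.24 (SE 0.052, edgeR adjusted p = 0.00465). BTG2 had the highest set coefficient of the members, 1.27, and levels of 7.64, 18.2 and 7.26 CPM in NT control and 15.4, 6.39 and 6.5 CPM in IKZF1-ko. Its group difference did not pass (log2 fold change -0.22, adjusted p = 0.23).

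The Polo-like kinases PLK2 and PLK3 act in stress checkpoints and were low in these cells. PLK2 was at 6.70, 7.03 and 5.95 CPM in NT control and at 6.08, 3.66 and 3.84 CPM in IKZF1-ko. Only IKZF1-ko replicate 1 reached the NT control levels. PLK2 had a log2 fold change of -0.55 (SE 0.17, edgeR adjusted p = 0.036), and the call was lost without NT control replicate 1 (-0.44, adjusted p = 0.18), NT control replicate 3 (-0.54, adjusted p = 0.082), IKZF1-ko replicate 2 (-0.47, adjusted p = 0.12) or IKZF1-ko replicate 3 (-0.51, adjusted p = 0.14), and in DESeq2 (-0.57, adjusted p = 0.099). PLK3 (adjusted p = 0.82) and the growth-arrest gene GADD45A (adjusted p = 0.64) did not pass.

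Of the 3 members that feed back on p53, 1 was lower and 1 higher in IKZF1-ko, where 6.62% and 6.93% of all genes were. MDM2 (ENSG00000135679, chromosome 12, 68808176 to 68850686) was at 149, 115 and 145 CPM in NT control and at 79.8, 112 and 126 CPM in IKZF1-ko. Only IKZF1-ko replicate 3 exceeded an NT control library, replicate 2. MDM2 had a log2 fold change of -0.38 (SE 0.059, edgeR adjusted p = 3.7e-04), and the differences were -0.52 in the smaller and -0.31 in the larger set. CCNG1, a cyclin that recruits a phosphatase to MDM2, is the most abundant member and was at 210, 332 and 207 CPM in NT control and at 373, 230 and 244 CPM in IKZF1-ko. It was higher in the smaller set in both groups and higher in IKZF1-ko in both sets. The log2 fold change was 0.18 (SE 0.046, edgeR adjusted p = 0.016). That call was lost with the surrogate variable (0.10, adjusted p = 0.23), without NT control replicate 1 (0.18, adjusted p = 0.070), without NT control replicate 3 (0.17, adjusted p = 0.072) and without IKZF1-ko replicate 3 (0.15, adjusted p = 0.15). The p53 phosphatase PPM1D (WIP1) did not pass (log2 fold change -0.02, adjusted p = 0.88).

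**Figure D2:**
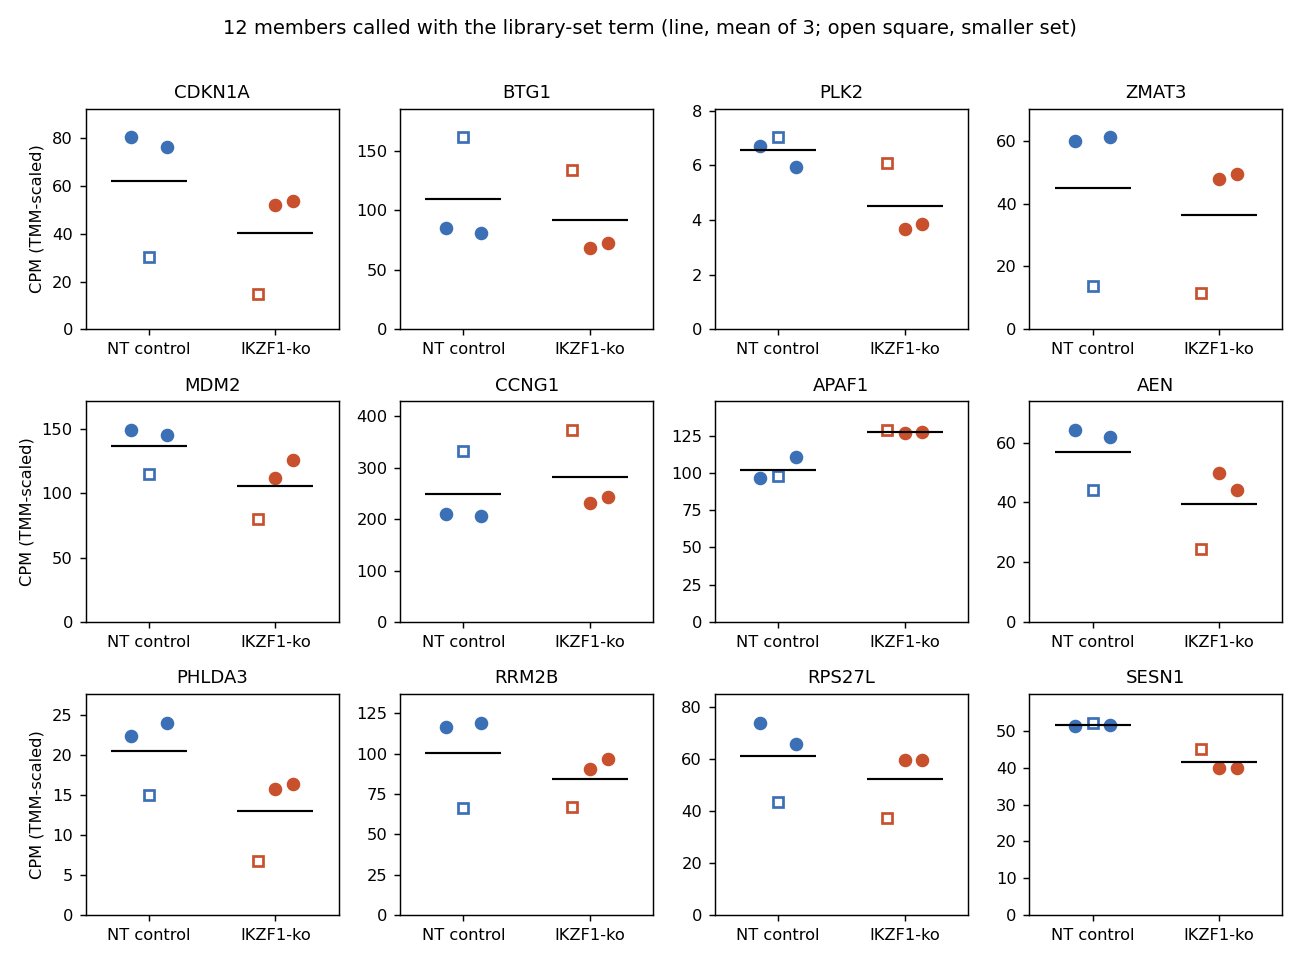
CPM in each library for the 12 members called with the set term (vertical axes start at 0, one panel per gene), with the mean of 3 libraries as a line and the smaller set as open squares. APAF1 and SESN1 are the panels whose groups do not overlap, and in CDKN1A and ZMAT3 the open squares lie below all filled points.

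Of the 11 members in death receptor and apoptosis pathways, 2 were lower and 1 was higher in IKZF1-ko, where 6.62% and 6.93% of all genes were. PHLDA3 (ENSG00000174307, chromosome 1, 201464383 to 201469237), which competes with AKT for membrane lipids, was at 22.4, 15 and 24 CPM in NT control and at 6.75, 15.7 and 16.3 CPM in IKZF1-ko. The groups overlapped by a narrow margin, at NT control replicate 2. Its log2 fold change of -0.69 (SE 0.12, edgeR adjusted p = 6.59e-04) was the lowest of the members. AEN (ENSG00000181026, chromosome 15, 88621296 to 88632282), an exonuclease that digests DNA in apoptosis, was at 64.1, 44.2 and 61.9 CPM in NT control and at 24.6, 49.9 and 44.2 CPM in IKZF1-ko. IKZF1-ko replicate 1 was the lowest library for both genes. The log2 fold change of AEN was -0.55 (SE 0.081, edgeR adjusted p = 2.67e-04).

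APAF1 (ENSG00000120868, chromosome 12, 98645141 to 98735433), which binds cytochrome c and activates caspase 9, went the other way. It was at 96.6, 97.8 and 111 CPM in NT control and at 129, 127 and 127 CPM in IKZF1-ko, with no overlap of the groups. APAF1 had a log2 fold change of 0.33 (SE 0.056, edgeR adjusted p = 8.91e-04) and a set coefficient of -0.03, the smallest in size of the members.

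The other 8 members of these pathways did not pass between the groups. In the smaller set 7 of them, TNFRSF10C being the exception, lay below all other libraries, where 31.5% of all genes did. The examples that follow were chosen after their values were seen. The death receptor gene FAS was at 17.6, 7.51 and 15 CPM in NT control and at 4.74, 14.4 and 14 CPM in IKZF1-ko (set coefficient -1.33). EDA2R, a receptor of the tumor necrosis factor family, had a set coefficient of -1.19 and TNFRSF10B, the TRAIL receptor DR5, one of -0.89. SPATA18, a mitochondrial quality control gene, had the lowest set coefficient of the members, -3.56. It was at 0.0683 and 0.468 CPM in the smaller set and 2.55 to 3.99 CPM in the other libraries. The levels in the smaller set rest on 1 and 7 counts, so the size of its differences is poorly fixed. The group difference of SPATA18 had a log2 fold change of 0.52 (adjusted p = 0.24), and 0.98 (adjusted p = 0.040) with the surrogate variable. TP53INP1 was nearest to the threshold of the members not called (log2 fold change -0.34, adjusted p = 0.066).

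All 6 members of DNA repair and nucleotide supply lay below the other libraries in the smaller set, where 31.5% of all genes did. Between the groups 2 were lower in IKZF1-ko, where 6.62% of all genes were. RRM2B, the p53-induced subunit of ribonucleotide reductase, was at 117, 66.5 and 119 CPM in NT control and at 67.0, 90.2 and 96.6 CPM in IKZF1-ko. The groups differed in the larger set (-0.34 on the log2 scale) and by 0.01 in the smaller one. Its log2 fold change was -0.23 (SE 0.065, edgeR adjusted p = 0.025). The call was lost with the surrogate variable (-0.15, adjusted p = 0.16), without NT control replicate 1 (-0.21, adjusted p = 0.14), NT control replicate 3 (-0.19, adjusted p = 0.11), IKZF1-ko replicate 2 (-0.17, adjusted p = 0.13) or IKZF1-ko replicate 3 (-0.23, adjusted p = 0.12).

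RPS27L, a ribosomal protein paralog, was at 73.9, 43.3 and 65.9 CPM in NT control and at 37.4, 59.8 and 59.6 CPM in IKZF1-ko. Within each set IKZF1-ko lay below NT control. RPS27L had a log2 fold change of -0.22 (SE 0.062, edgeR adjusted p = 0.025). It did not pass in DESeq2 (-0.23, adjusted p = 0.050), with the surrogate variable (-0.14, adjusted p = 0.22), or without NT control replicate 1 (-0.17, adjusted p = 0.19), IKZF1-ko replicate 2 (-0.22, adjusted p = 0.063) or IKZF1-ko replicate 3 (-0.22, adjusted p = 0.12). The nucleotide excision repair genes XPC and DDB2 (log2 fold changes 0.00 and -0.05), the polymerase gene POLH (-0.04) and TP53BP1 (-0.06), which encodes the double-strand break protein 53BP1, had adjusted p of 0.58 to 0.996.

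Among the members of metabolism and redox control, 1 of 6 tested was lower in IKZF1-ko, where 6.62% of all genes were. SESN1 (ENSG00000080546, chromosome 6, 108986437 to 109094819), a stress-induced inhibitor of mTORC1 signaling, was at 51.4, 52.1 and 51.7 CPM in NT control and at 45.0, 39.9 and 39.8 CPM in IKZF1-ko. The groups did not overlap, and the NT control libraries of both sets were level. The log2 fold change was -0.32 (SE 0.064, edgeR adjusted p = 0.0035), with a set coefficient of 0.10. Its paralog SESN2, also a target of the stress factor ATF4, was at 65.7, 30.4 and 73.7 CPM in NT control and at 20.5, 91.1 and 87.9 CPM in IKZF1-ko. Here the group difference had opposite signs in the sets, 0.36 in the larger and -0.57 in the smaller, and the fit with the set term did not call it (0.14, adjusted p = 0.47), whereas the 4 libraries alone did (0.36, adjusted p = 1.2e-04).

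TIGAR, which lowers glycolytic flux (set coefficient -1.93), the ferredoxin reductase gene FDXR (-1.41), the quinone oxidoreductase gene TP53I3 (-1.28) and the interferon-inducible TRIM22 (-0.96) lay low in the smaller set and did not pass between the groups (adjusted p = 0.11 to 0.985). GDF15, a secreted stress cytokine and the member left out by the filter, had 16 counts over all libraries, at 0 to 0.424 CPM. The 21 members tested and not called had mean levels of 1.39 CPM (TNFRSF10C) to 129 CPM (TNFRSF10B). Per kilobase of exon, mean CPM ran from 0.0914 for GDF15 to 85.9 for CCNG1.

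The set difference and the group difference were then compared over the members. The set coefficient had a median of -0.57 over the 33 members and 0.01 over all genes. It was -1 or lower for 9 members, where 3.07% of all genes were, and 1 or higher for 1 member, where 6.19% were. The 22 members below all other libraries in the smaller set were 66.7% of the 33, and the 5 above them 15.2%. For 30 of 33 members the set coefficient was larger in size than the group log2 fold change, as it was for 79.9% of all genes. The set difference could be read once in NT control and once in IKZF1-ko, from separate libraries. Across the 33 members these readings had a Pearson r of 0.91 and a Spearman rho of 0.95, and 32 had the same sign, but the sets were chosen from these libraries. Over all genes, the deviations of the smaller-set libraries from their group means had a Pearson r of 0.82. The share of all genes with the same sign was not counted.

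**Figure D3:**
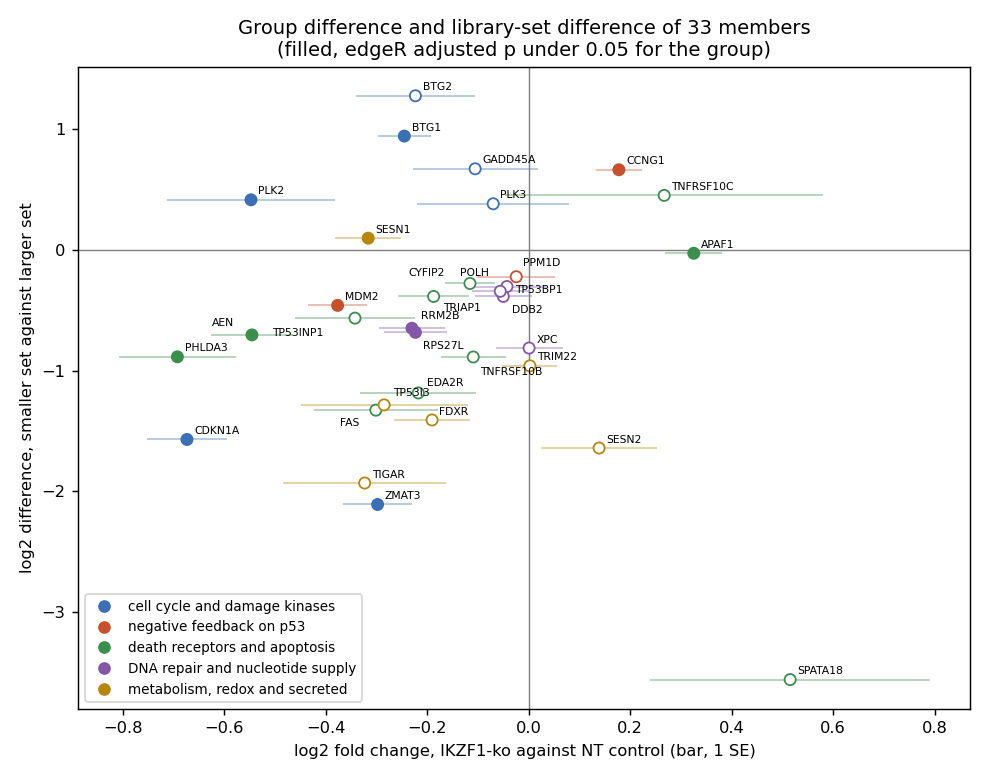
Log2 fold change of IKZF1-ko against NT control with the set term (horizontal, bar 1 SE) against the set coefficient (vertical, log2) for 33 members, colored by role and filled where the edgeR adjusted p for the group is under 0.05. Members spread from -3.56 to 1.27 on the vertical axis and from -0.69 to 0.52 on the horizontal one. The lowest vertical and highest horizontal values are those of SPATA18, which had 1 and 7 counts in the smaller set.

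The group difference was also read within each set, from separate libraries, as a description. IKZF1-ko lay lower in both sets for 20 of 33 members (60.6%), where 31.1% of all genes did, and higher in both for 4 members, where 31.9% of all genes did. The other 9 had opposite signs. CDKN1A, PHLDA3 and AEN had the widest differences of the called members in the smaller set (-1.02, -1.14 and -0.84), each larger in size than in the larger set (-0.56, -0.53 and -0.42). The smaller set holds 1 library of each group, so these differences have no replicate check. Across members the readings of the sets had a Pearson r of 0.57 and a Spearman rho of 0.50, and 24 of 33 (72.7%) had the same sign, as 63.0% of all genes had.

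**Figure D4:**
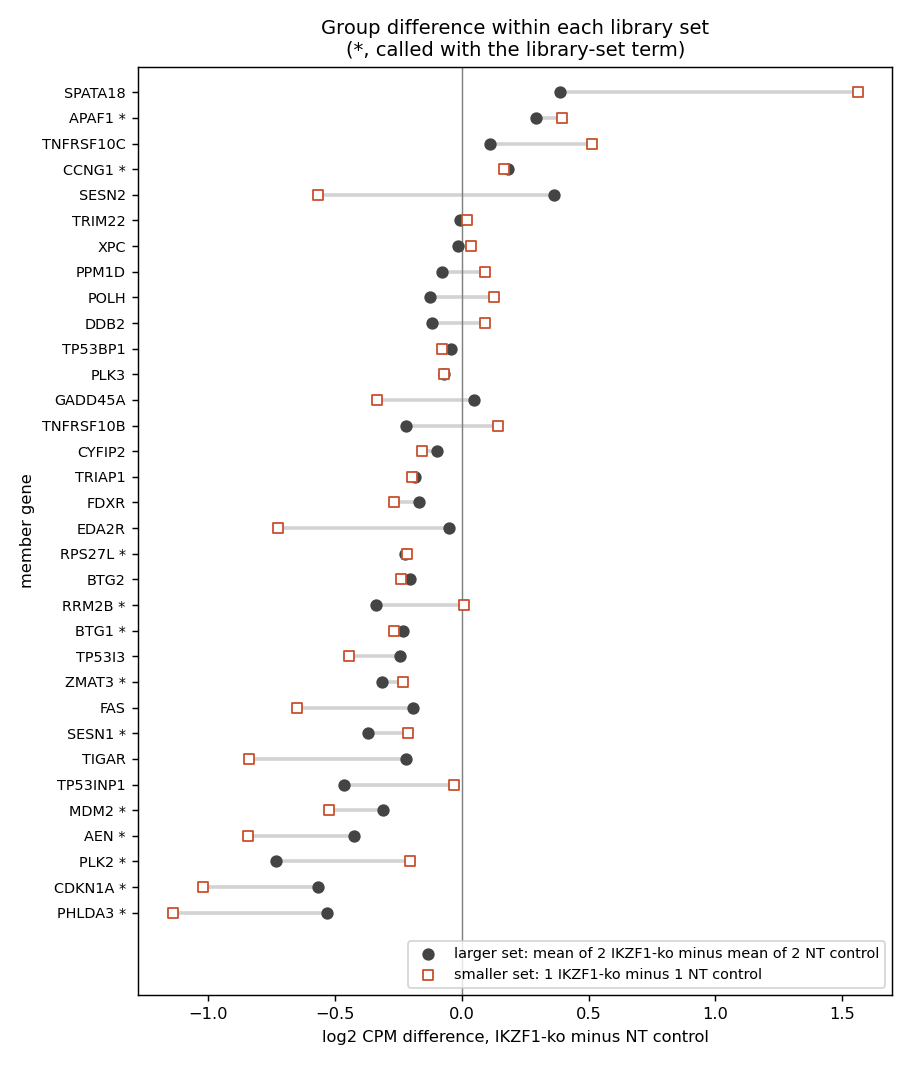
Log2 CPM difference of IKZF1-ko from NT control for 33 members, within the larger set (filled, means of 2 libraries) and within the smaller set (open, 1 library each), with a star at members called with the set term. For 20 members both points lie below 0, and SESN2 has its points on opposite sides.

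The genes that set p53 activity were examined as a list of 24 regulators, 22 of them tested. With the set term 3 were higher and 2 lower in IKZF1-ko, where 6.93% and 6.62% of all genes were. The medians were -0.01 for the group and -0.22 for the set. MDM4, which binds and inhibits p53, was at 61.1, 102 and 60.3 CPM in NT control and at 128, 69.1 and 72.8 CPM in IKZF1-ko. It was higher in the smaller set and in IKZF1-ko within each set (0.26, edgeR adjusted p = 0.0037), and did not pass with the surrogate variable (0.17, adjusted p = 0.082). SETD7, a lysine methyltransferase, was higher (0.32, adjusted p = 7.35e-04). The p53 family gene TP63 was lower, from 2.38 to 5.87 CPM in NT control to 0.928 to 1.40 CPM in IKZF1-ko (-1.58, adjusted p = 7.09e-04). PPP1R13L, an inhibitor of p53-driven apoptosis (0.46, adjusted p = 0.042), and the damage kinase gene ATR, named after its value was seen (-0.23, adjusted p = 0.043), completed the 5. Neither passed with the surrogate variable (adjusted p = 0.19 and 0.22). There the list had 1 gene higher and 1 lower, near the 4.39% and 3.52% of all genes.

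Of 65 other p53 targets outside the 34, 57 were tested, with 10 lower and 3 higher and a median of -0.04 (set median -0.11). With the surrogate variable 5 were lower and 2 higher. Of all genes, 6.62% were lower and 6.93% higher with the set term, and 3.52% and 4.39% with the surrogate variable. BAX, the pore-forming protein of apoptosis, was at 147, 68.6 and 143 CPM in NT control and at 48.4, 118 and 117 CPM in IKZF1-ko. As for CDKN1A, the smaller set held its lowest libraries and IKZF1-ko lay below NT control in each set, with a log2 fold change of -0.36 (edgeR adjusted p = 2.67e-04) and a set coefficient of -1.18. TM7SF3 (-0.44, adjusted p = 1.03e-05) and TNFAIP8 (-0.38, adjusted p = 1.72e-04) were also lower. DDIT4, an inhibitor of mTORC1 that hypoxia and ATF4 also induce, was higher (0.67, adjusted p = 1.5e-04).

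Genes that p53 represses through CDKN1A and the DREAM complex are cell cycle genes, and an increase in p21 is known to lower them. Of 22 tested, 6 were lower in IKZF1-ko with the set term and 0 higher, with a median of -0.13. Of all genes, 6.62% were lower and 6.93% higher. IKZF1-ko lay lower in both sets for 14 of the 22 (63.6%), where 31.1% of all genes did. The signs were opposite for the other 8 (36.4%), near the share of all genes, 4820 of 13028. PLK1 (-0.27, edgeR adjusted p = 0.0012), BIRC5 (-0.26, adjusted p = 0.0043), CCNB1 (-0.23, adjusted p = 0.0087) and CDC20 (-0.22, adjusted p = 0.013) had the lowest adjusted p. With the surrogate variable 2 of 22 were called lower, where 3.52% of all genes were, and CCNB1 (adjusted p = 0.059) and CDC20 (adjusted p = 0.13) did not pass. All 22 had a negative set coefficient, with a median of -0.48, where 49.2% of all genes had a negative one. CDKN1A also had a negative set coefficient and was lower in IKZF1-ko. A link between its level and these genes was not tested.

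Lists of other stress responses were examined in the same way. Of 19 tested hypoxia genes, 17 lay above all other libraries in the smaller set, where 32.5% of all genes did. Their median set coefficient was 1.09. Their summed level was 3665 to 6096 CPM in NT control and 3846 to 6703 CPM in IKZF1-ko. With the set term 8 were higher in IKZF1-ko and 0 lower, where 6.93% and 6.62% of all genes were. P4HA1 (0.34), ENO2 (0.55), VEGFA (0.41) and ALDOC (0.36) had the lowest edgeR adjusted p. With the surrogate variable 2 were higher (4.39% of all genes), and P4HA1 (adjusted p = 0.083) and ALDOC (adjusted p = 0.21) did not pass. The part of this difference in the levels of the p53 targets was not tested.

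Of 14 tested genes of ATF4 and the stress response, 1 was higher in IKZF1-ko (VLDLR, 0.32, edgeR adjusted p = 4.51e-04) and 0 were lower. That was near the 6.93% of all genes called higher. With the surrogate variable 2 were higher (4.39% of all genes), and in the larger set alone 9 were (7.64%). As for SESN2, the signs were opposite between the sets for 9 of 14 (64.3%), where they were for 4820 of all 13028 genes. The median difference of the 14 was 0.29 in the larger and -0.27 in the smaller set. Of 11 tested immediate early genes, 1 was higher (IER2, 0.21, edgeR adjusted p = 0.025), where 6.93% of all genes were, and 0 were lower. With the surrogate variable IER2 had 0.17 and did not pass, and 0 genes of the list were called. In the smaller set 7 of the 11 lay above all other libraries, where 32.5% of all genes did.

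The mean log2 level of the members relative to the 6 libraries was 0.28, -0.30 and 0.27 in NT control, and -0.49, 0.11 and 0.12 in IKZF1-ko. The larger set was thus above the smaller one in both groups, and IKZF1-ko below NT control in both sets. For the hypoxia genes the levels were -0.54, 0.72 and -0.49 in NT control and 0.87, -0.27 and -0.29 in IKZF1-ko. There the order of the sets was the opposite. The CDKN1A and DREAM genes had the order of the members, at 0.26, -0.33 and 0.27 in NT control and -0.41, 0.09 and 0.12 in IKZF1-ko.

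**Figure D5:**
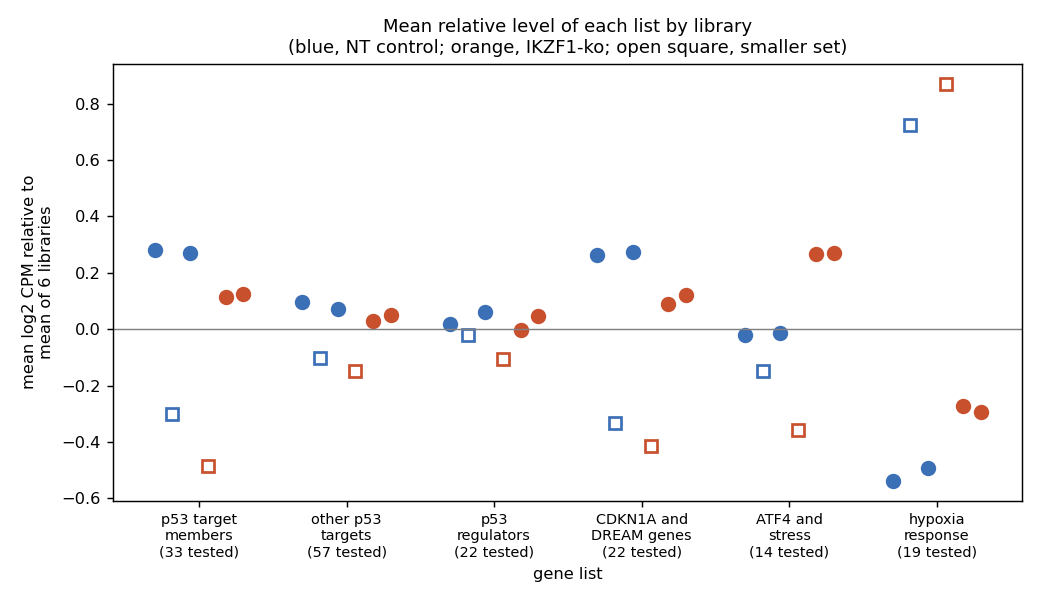
Mean log2 CPM of each gene list relative to the mean of 6 libraries, one point per library, with NT control in blue, IKZF1-ko in orange and the smaller set as open squares. The members lie at -0.30 and -0.49 in the smaller set and at 0.11 to 0.28 in the larger one, and the hypoxia genes at 0.72 and 0.87 and at -0.54 to -0.27.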

How the data were processed

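RNA was extracted with a column kit and libraries were made with a stranded mRNA kit, per the labels' protocols. The authors' deposited table holds whole-number read counts per gene for 6 libraries, used unscaled, with 0 columns of other samples. Trimmomatic, STAR and GRCh38 are named, without versions, in the submitters' processing notes; no source used here gives the counter, its strand setting or its annotation. Columns were matched by library name and groups by title. Of 58233 identifiers, 57895 were in GENCODE release 29 and 57392 had a symbol. Reads of members that share exon positions with another gene may be split wrongly: BTG1, MDM2, TNFRSF10C, PHLDA3, TIGAR and TRIM22 on the same strand, and CDKN1A, PLK3, FAS, TNFRSF10B, APAF1, CYFIP2, XPC, POLH, TP53BP1, SESN1 and TP53I3 on the opposite strand only.

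The test was the two-sided quasi-likelihood F test of edgeR 4.0.16 (R 4.3.3) with TMM factors, filterByExpr by group, Benjamini-Hochberg adjustment over 13028 genes and a threshold of 0.05, fitted with group alone and with group plus library set. The SE is the log2 fold change divided by the root of F. Log2 CPM used a prior count of 2. Members and lists were chosen with earlier results of these data known, and the set term was defined from these counts. Alternatives were other scalings (RLE, upper quartile, library size), no filter on low counts, 1 CPM in 3 libraries, DESeq2 1.42.0, limma-voom (limma 3.58.1), a replicate block, each library left out, 1 surrogate variable (sva 3.50.0) and the larger set alone. Values in every library are given for CDKN1A, MDM2, members called with the set term and members whose groups do not overlap. Of each other list up to 4 called genes are named by lowest adjusted p, with MDM4, BAX and IKZF1 always given; 1 further gene of that rule is not reported here. In the larger set, replicates of 1 group differed beyond sampling noise, with a chi-square of 2.22 (NT control) and 2.23 (IKZF1-ko) for each degree of freedom. Figures used matplotlib 3.10.9.

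On simulated counts of 12816 genes for IKZF1-ko against NT control, the fit on group alone recovered 0%, 2%, 26% and 64% of genes changed 1.25-, 1.5-, 2- and 4-fold, with 0 false calls of 46. With the set term it recovered 56%, 90%, 86% and 96%, with 9 false of 173. The counts were simulated from the fit with the set term, with its dispersions and with the sets taken as known. The simulation therefore favors that fit by design and does not include the choice of the sets from the counts.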

Additional observations from a re-analysis of the deposited data

How the results depend on the processing

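On group alone, 0 members were called under each of the 14 alternatives. With 1 library left out, the log2 fold change on group alone ran from -0.63 to 0.14 for BTG1, from -0.73 to 0.12 for ZMAT3 and from -0.076 to 0.44 for CCNG1. It changed sign for BTG1 without NT control replicate 2 and for ZMAT3 and CCNG1 without IKZF1-ko replicate 1. With the set term, leaving out 1 library in turn gave 6 to 12 members lower and 1 to 3 higher, with 6 lower and 1 higher without IKZF1-ko replicate 3, and 1 higher without NT control replicate 1 or replicate 3. The other alternatives gave 7 (surrogate variable) to 15 (replicate block) lower and 2 or 3 higher. In 21 cases a member called with the set term kept its direction and missed the threshold, all in PLK2, ZMAT3, CCNG1, RRM2B and RPS27L. Deviations of same-numbered libraries from their group means had a Pearson r of -0.66, -0.69 and 0.59 for numbers 1, 2 and 3. Numbers 1 and 2 each join libraries of different sets, and every such pair was negative. These values therefore cannot show whether the numbers pair the libraries. A replicate block called 0 members on group alone, and 15 lower and 2 higher with the set term. The direction of XPC and TRIM22 depended on the scaling. Across scalings the median set difference of all genes ran from -0.029 to 0.064 (log2), a span of 0.093. The spread between replicates limits the fit on group alone, at a coefficient of variation of 22.2%, against 4.83% with the set term. With 2 libraries in the smaller set, differences within it cannot be tested.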
